A study of Homo sapiens with 8 samples.

Results

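The 60 genes described here encode ribosome biogenesis factors, the nucleolar proteins that transcribe, modify, cut and assemble pre-ribosomal RNA. They were taken from a fixed list of gene names, and all 60 were found by Entrez identifier among the 17309 genes of the count table. By their known roles they were divided into 4 factors of RNA polymerase I transcription, 4 box C/D snoRNP proteins, 4 box H/ACA snoRNP proteins, 3 multifunctional nucleolar proteins, 34 small-subunit factors and 11 large-subunit factors. RNA-seq was made from SW480 and DLD-1, a pair of established cell lines from human colorectal cancers, both labelled wild type. The study's authors describe both lines as p53 mutant. Cells of each line were infected with a lentivirus carrying a control hairpin (shControl) or a hairpin against NAT10 (shNAT10), so that all 4 groups carried a hairpin virus. Each group had 2 libraries labelled as biological replicates, and the p-values given below measure the spread between such pairs. Which NAT10 hairpin was sequenced is not given in the sources used here.

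Ribosomes are built in the nucleolus, where RNA polymerase I makes a long precursor rRNA. The U3 box C/D snoRNP and the UTP-A and UTP-B complexes assemble on its front part into the small-subunit processome, while the PES1-BOP1-WDR12 complex and its partners act on the large-subunit part. Box C/D snoRNPs guide ribose methylation and box H/ACA snoRNPs guide pseudouridylation of rRNA. NAT10 is an RNA acetyltransferase that acetylates cytidines in the small-subunit rRNA and takes part in processing its precursor, so small-subunit and large-subunit factors were set side by side. Poly(A)-selected RNA was sequenced, which shows the mRNAs of these proteins and neither the rRNA nor its acetylation.

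The libraries held between 15147805 and 17271336 estimated counts. After genes of low count were set aside by filterByExpr, 13619 genes were tested, all 60 members among them. The lowest count of a member in any library was 42, for PWP2. NAT10 mRNA fell in both lines, by 2.25 on the log2 scale in SW480 and by 1.09 in DLD-1 (edgeR, adjusted p = 3.7e-09 and 2.7e-05). By limma-trend on FPKM values the DLD-1 value of NAT10 was −1.04 with an adjusted p of 0.083, and the call was lost there. The 9 epithelial markers measured summed to between 3169 and 3928 CPM (counts scaled to library size by TMM) in SW480 libraries and to between 7500 and 8094 CPM in DLD-1 libraries, against 1.51 to 4.80 CPM for 6 fibroblast markers, 0.587 to 1.64 CPM for 4 endothelial markers and 17.9 to 31.6 CPM for 4 leukocyte markers. Of the fibroblast markers, COL3A1 and DCN were at 0 in both SW480 groups, and COL1A2 and LUM were at most 0.117 CPM there. COL1A1 had 1.64 to 2.29 CPM and PDGFRB 1.94 to 3.04 CPM in the SW480 libraries. KRT8 and KRT18 made up most of the epithelial sums. CD68 made up most of the leukocyte sums, at 17.3 to 30.7 CPM. CD3E, CD79A and LYZ were at most 0.588 CPM in any library, and PTPRC and MS4A1 were not measured. KRT20 was at 0.06 to 0.23 CPM in SW480 and at 17.5 to 20.6 CPM in DLD-1 libraries. The SW480 shNAT10 pair of libraries differed more than the other pairs, with a chi-square per degree of freedom over genes of 9.47 against 3.19 to 4.37. Results in SW480 are therefore given with and without each of these libraries.

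Levels per length were read from the deposited FPKM values of the control libraries. NPM1, a nucleolar chaperone, was the most abundant member, at 2106 ± 43.4 FPKM in SW480 shControl and 1456 ± 14.97 FPKM in DLD-1 shControl cells (mean ± SD, n = 2 libraries each). It was followed in SW480 by FBL, the methyltransferase of box C/D snoRNPs, at 691 ± 8.63 FPKM. Box H/ACA proteins had a median of 192.1 FPKM and box C/D proteins of 130.5 FPKM in SW480 shControl cells. Large-subunit factors had a median of 41.9 FPKM and small-subunit factors of 28.1 FPKM there, and 48.7 and 27.5 FPKM in DLD-1 shControl cells. The ranges of these classes overlapped widely, from 1.2 to 82.0 FPKM for small-subunit and from 13.2 to 91.9 FPKM for large-subunit factors in SW480. The lowest of these values is that of PWP2, which is uncertain as described below, and the next lowest was WDR3 at 7.13 FPKM.

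The least abundant member was PWP2, a scaffold protein of the UTP-B complex, at 1.2 ± 0.184 FPKM in SW480 and 1.31 ± 0.113 FPKM in DLD-1 control cells. The genome build holds a near copy of this gene, and reads of the shared sequence cannot be told apart. Of the 50-base windows of PWP2 transcripts in GENCODE, 88.2% also occur in a protein-coding gene on the same chromosome (GRCh38 chr21:5130871-5154734), which the count table lists under Entrez identifier 102724159. The reads were 50 bases long. Between 987 and 1557 counts per library had been assigned to the near copy, against 42 to 59 for PWP2 itself, and its level was 20.2 ± 0.198 FPKM in SW480 and 29.2 ± 1.95 FPKM in DLD-1 control cells. PWP2 on its own is therefore given as uncertain, and its sum with the near copy is given beside it. Among the other members, RRN3 shared 25% of its windows with other genes, most of them with RRN3P2. DDX47 shared 33.9%, most with APOLD1, LTV1 shared 30.4%, most with AL049844.3, and NPM1 shared 18.9%, most with a processed pseudogene. The other members shared less than 20%.

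With NAT10 knockdown in SW480 cells, DHX37 and PES1 rose, and the 95% interval of each of the 60 members lay within a 2-fold change. By edgeR's quasi-likelihood test, 2 of the 60 members were higher at an adjusted p under 0.05, where 0.778% of all genes tested were, and 0 were lower, where 0.903% of all genes were. At an unadjusted p under 0.05, 14 members were higher and 2 lower, against 8.69% and 10.6% of all genes. The 14 were FBL, NOP56 and SNU13 of the box C/D snoRNP, DKC1 and NOP10 of the box H/ACA snoRNP, the small-subunit factors DHX37, RRP9, IMP3, BYSL and RRP12, and the large-subunit factors BOP1, PES1, NOC2L and GNL3. The 2 lower ones were WDR36 and NOC3L. The median log2 fold change of the 60 members was 0.06, against −0.01 over all genes tested, and 37 of them lay above 0, where 47.8% of all genes did. In 24 members both shNAT10 libraries lay above both controls (21.7% of all genes), and in 7 both lay below (26.2%).

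**Figure D1:**
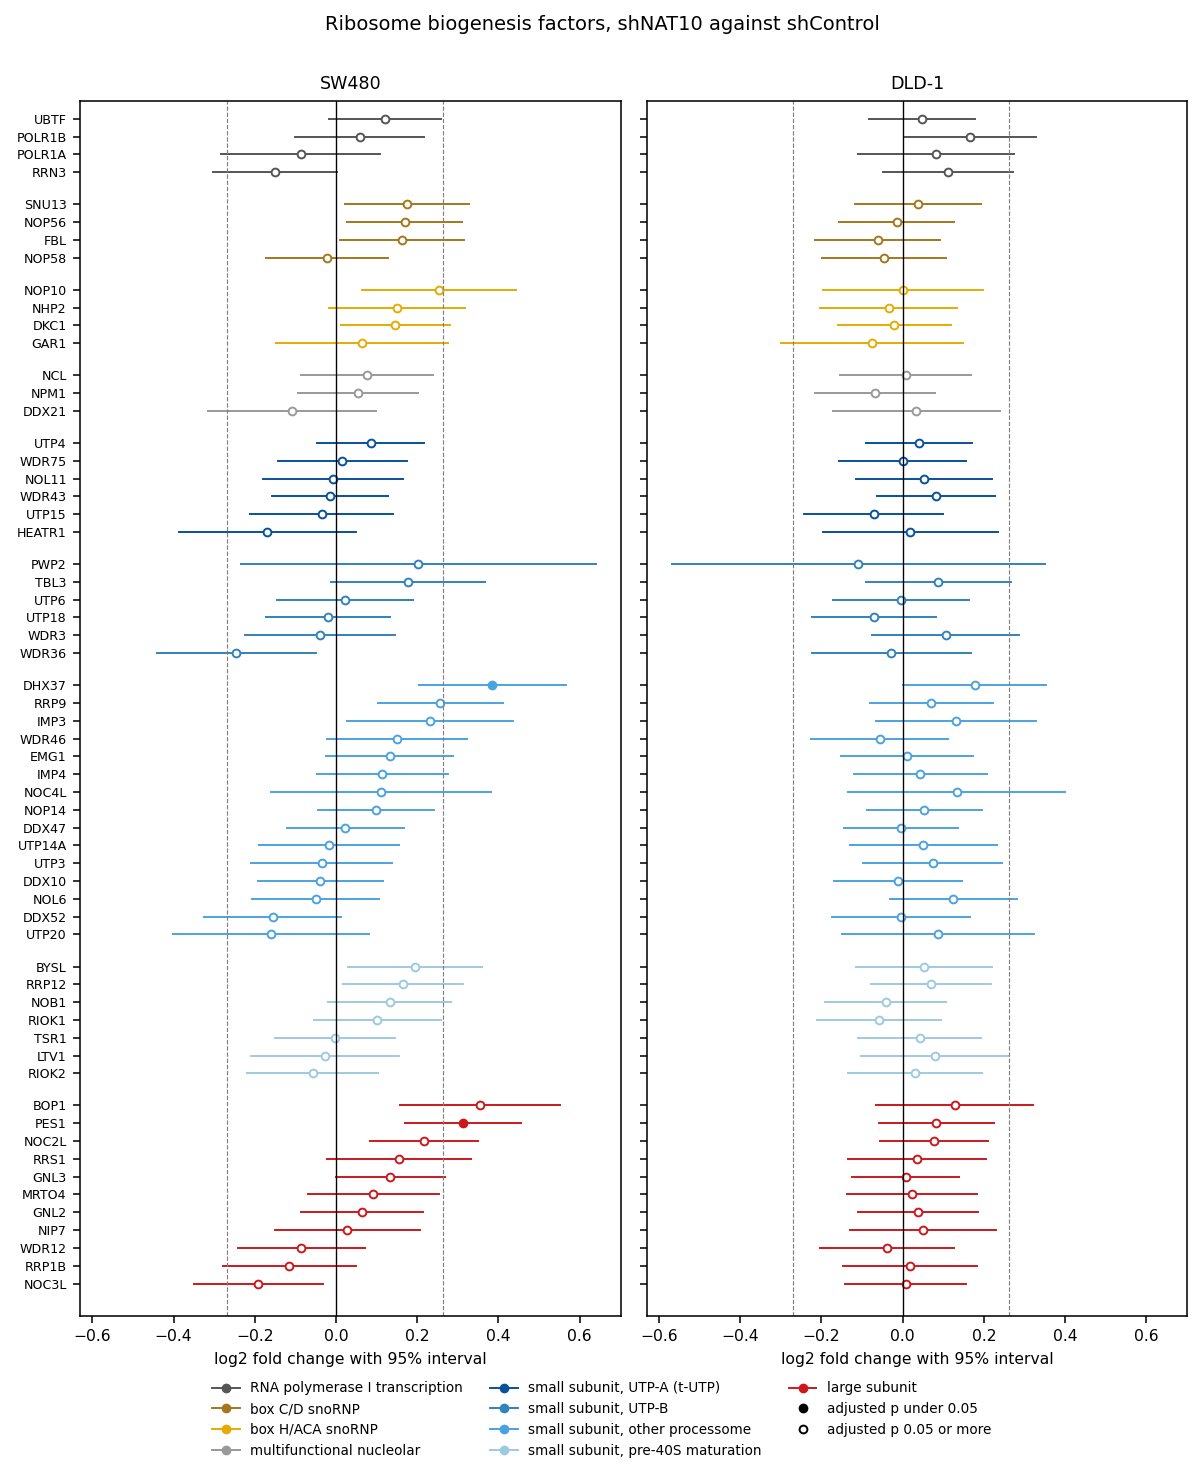
Log2 fold change of shNAT10 against shControl for each of the 60 members, in SW480 (left) and DLD-1 (right). Points are edgeR estimates, bars are 95% intervals, colours mark the class, and dashed lines mark fold changes of 0.83 and 1.2. Filled points, at an adjusted p under 0.05, are DHX37 and PES1 in SW480, and every interval lies within a 2-fold change.

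DHX37, a DEAH-box RNA helicase that releases the U3 snoRNA from the small-subunit processome, lies on chr12:124946826-124989131 (GRCh38). Its CPM was 35.6 and 38.3 in the SW480 shControl libraries and 48.5 and 48.0 in the shNAT10 libraries, so that the groups did not overlap. In DLD-1 it was 45.3 and 52.1 CPM in shControl and 56.1 and 54.0 CPM in shNAT10 cells, again without overlap. In SW480 DHX37 was higher after knockdown by 0.38 on the log2 scale (standard error 0.08, edgeR adjusted p = 0.037), a call lost in several other fits given below. In DLD-1 its log2 fold change was 0.18 (standard error 0.08, edgeR adjusted p = 0.83). Over both lines it was 0.28 (standard error 0.06, edgeR adjusted p = 0.037), a 1.22-fold rise. This was the only member called for the mean of both lines, where 0.455% of all genes tested were higher and 0.565% lower. It was also the only one past the study's limits for the mean, a fold change over 1.2 or under 0.83 with an unadjusted p under 0.05, which 1.3% of all genes passed upward and 1.82% downward. At an unadjusted p under 0.05 alone, 9 members were higher for the mean (TBL3, DHX37, RRP9, IMP3, BYSL, RRP12, BOP1, PES1 and NOC2L) and 0 lower, against 6.7% and 7.76% of all genes.

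PES1, the pescadillo protein of the PES1-BOP1-WDR12 complex, lies on chr22:30576625-30607013. Its SW480 values were 157 and 156 CPM in controls and 202 and 186 CPM after knockdown, and both knockdown libraries were above both controls. It rose in SW480 by 0.31 on the log2 scale (standard error 0.07, edgeR adjusted p = 0.033). In DLD-1 it had 194 and 182 CPM in shControl against 204 and 194 CPM in shNAT10 cells, and a log2 fold change of 0.08 (standard error 0.07, edgeR adjusted p = 0.92). The difference between the lines was 0.23 (95% interval 0.03 to 0.43, edgeR adjusted p = 0.49), so a difference in response was not shown. Exons of PES1 overlap those of TCN2 on the opposite strand, and no strand setting is stated, so reads of the overlap cannot be told apart. In all, 20 members overlap coding exons of another gene on either strand, TBL3, WDR12, HEATR1, NOC2L and IMP3 among them.

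The promoters of the 2 genes that passed the test are shown because they carry sequence elements that are frequent among the members. They are RefSeq sequences of GRCh38.p14 on the minus strand, from 250 bases before to 50 bases after a listed transcription start, with an E-box (CACGTG) and an ETS-type motif (CCGGAAG) in capitals.
PES1, chr22:30591861-30592160: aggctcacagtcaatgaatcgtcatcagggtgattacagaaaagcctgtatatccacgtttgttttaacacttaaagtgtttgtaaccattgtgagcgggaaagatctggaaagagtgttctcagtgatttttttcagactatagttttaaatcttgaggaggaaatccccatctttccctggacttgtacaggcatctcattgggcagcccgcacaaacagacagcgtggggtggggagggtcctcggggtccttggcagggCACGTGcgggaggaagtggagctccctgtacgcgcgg
DHX37, chr12:124989082-124989381: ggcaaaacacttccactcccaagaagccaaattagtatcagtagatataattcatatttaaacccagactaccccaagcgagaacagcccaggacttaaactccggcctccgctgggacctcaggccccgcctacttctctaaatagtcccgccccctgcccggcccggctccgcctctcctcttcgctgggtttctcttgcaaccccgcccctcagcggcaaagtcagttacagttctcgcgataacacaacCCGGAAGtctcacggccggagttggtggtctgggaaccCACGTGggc
The E-box, which reads the same on both strands, began 14 bases after the start in PES1 and 42 bases after it in DHX37, and the ETS-type motif began 4 bases after the start in DHX37. Of the members, 53 had a promoter in the table, 61 promoters in all. On either strand the E-box was in 23 of these 61 (37.7%), against 9.19% of the promoters of tested genes and 7.26% of all 35116 promoters of the same length. The motif CCGGAAG was in 25 of the 61 (41%), against 16.1% and 10.3%. Neither motif overlaps the other in these 2 promoters. Of the small-subunit factors' promoters 42.4% held the E-box, as did 5 of 9 large-subunit promoters. Matches of letters are a description and show no binding.

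BOP1, the WD-repeat partner of PES1, had 81.2 and 74.7 CPM in SW480 shControl and 110 and 89.4 CPM in shNAT10 cells. The groups did not overlap, but the knockdown libraries were far apart, and the log2 fold change of 0.36 (standard error 0.09) had an edgeR adjusted p of 0.071. By DESeq2 the adjusted p of BOP1 was 0.016. With each library left out, its log2 fold change in SW480 lay between 0.21 and 0.50, the highest value without SW480 shNAT10 replicate 2. WDR12, the other partner in the complex, had 103 and 101 CPM in shControl and 91.6 and 101 CPM in shNAT10 cells, with a log2 fold change of −0.09 (95% interval −0.24 to 0.07, edgeR adjusted p = 0.55). In DLD-1 the values of BOP1 were 107 and 107 CPM in shControl and 122 and 112 CPM in shNAT10 cells, a log2 fold change of 0.13 (edgeR adjusted p = 0.92). WDR12 had 58.5 and 59.3 CPM against 55.5 and 59.2 CPM there. At the study's limits, DHX37, BOP1 and PES1 were higher in SW480 (4.1% of all genes were) and 0 members were lower (4.98% of all genes were).

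WDR36 and NOC3L had the lowest fold changes in SW480. WDR36, a UTP-B protein, had 82.5 and 89.1 CPM in shControl and 67.2 and 77.6 CPM in shNAT10 cells, a log2 fold change of −0.25 (standard error 0.09, edgeR adjusted p = 0.17). NOC3L, which works with NOC2L on large-subunit precursors, had 53.6 and 53.3 CPM against 45.0 and 48.6 CPM, a log2 fold change of −0.19 (standard error 0.07, edgeR adjusted p = 0.18). Neither passed the test, although in both genes the knockdown libraries lay below the controls. In DLD-1, WDR36 had 77.5 and 79.3 CPM in shControl and 70.8 and 83.2 CPM in shNAT10 cells, and NOC3L had 85.0 and 85.7 CPM against 85.5 and 86.2 CPM. The knockdown values of WDR36 lay on either side of the controls there, and those of NOC3L overlapped them.

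In the fit of 4 groups, 0 of the 8 snoRNP proteins passed the edgeR test in either line. With a term for the replicate number added, FBL, NOP10 and SNU13 passed it in SW480, where 5.39% of all genes were higher. SNU13, which binds the box C/D fold of snoRNAs, had 146 and 128 CPM in SW480 shControl and 157 and 152 CPM in shNAT10 cells (log2 fold change 0.17, edgeR adjusted p = 0.21). NOP10, a small subunit of the box H/ACA snoRNP, had 84.8 and 77.5 CPM against 101 and 92.6 CPM (log2 fold change 0.25, edgeR adjusted p = 0.15). Both genes were higher in both knockdown libraries of SW480. In DLD-1, SNU13 had 117 and 114 CPM in shControl and 120 and 117 CPM in shNAT10 cells, and NOP10 had 60.4 and 68.0 CPM against 59.8 and 68.7 CPM. The NOP10 values of DLD-1 overlapped almost fully. GAR1, another box H/ACA protein, had 41.7 and 50.9 CPM in SW480 shControl, 48.6 and 48.2 CPM in SW480 shNAT10, 34.1 and 35.7 CPM in DLD-1 shControl and 30.4 and 35.9 CPM in DLD-1 shNAT10 cells. Its knockdown values lay within or across the control range in each line. The 4 box C/D proteins had a median log2 fold change of 0.17 in SW480 and −0.03 in DLD-1, and the 4 box H/ACA proteins of 0.15 and −0.03.

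Among the remaining members named, POLR1B, a core subunit of RNA polymerase I, had 98.5 and 101 CPM in SW480 shControl and 101 and 106 CPM in shNAT10 cells. In DLD-1 it had 80.9 and 91.6 CPM against 96.3 and 97.3 CPM, a log2 fold change of 0.17 (standard error 0.08, edgeR adjusted p = 0.83). Its knockdown libraries lay above the controls in both lines. BYSL, a maturation factor of the small-subunit precursor, had 40.03 and 41.2 CPM against 48.5 and 44.5 CPM in SW480, and 42.4 and 39.8 CPM against 42.9 and 42.4 CPM in DLD-1. HEATR1, a large UTP-A protein, had 112 and 123 CPM in SW480 shControl and 95.3 and 115 CPM in shNAT10 cells, and 126 and 155 CPM against 142 and 142 CPM in DLD-1. NCL, nucleolin, had 918 and 964 CPM against 921 and 1063 CPM in SW480, and 1390 and 1409 CPM against 1369 and 1444 CPM in DLD-1. BYSL was higher in both knockdown libraries of SW480, whereas the groups of HEATR1 and NCL overlapped in both lines. None of these 4 passed the test in either line or for the mean of both (edgeR adjusted p from 0.20 to 1).

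**Figure D2:**
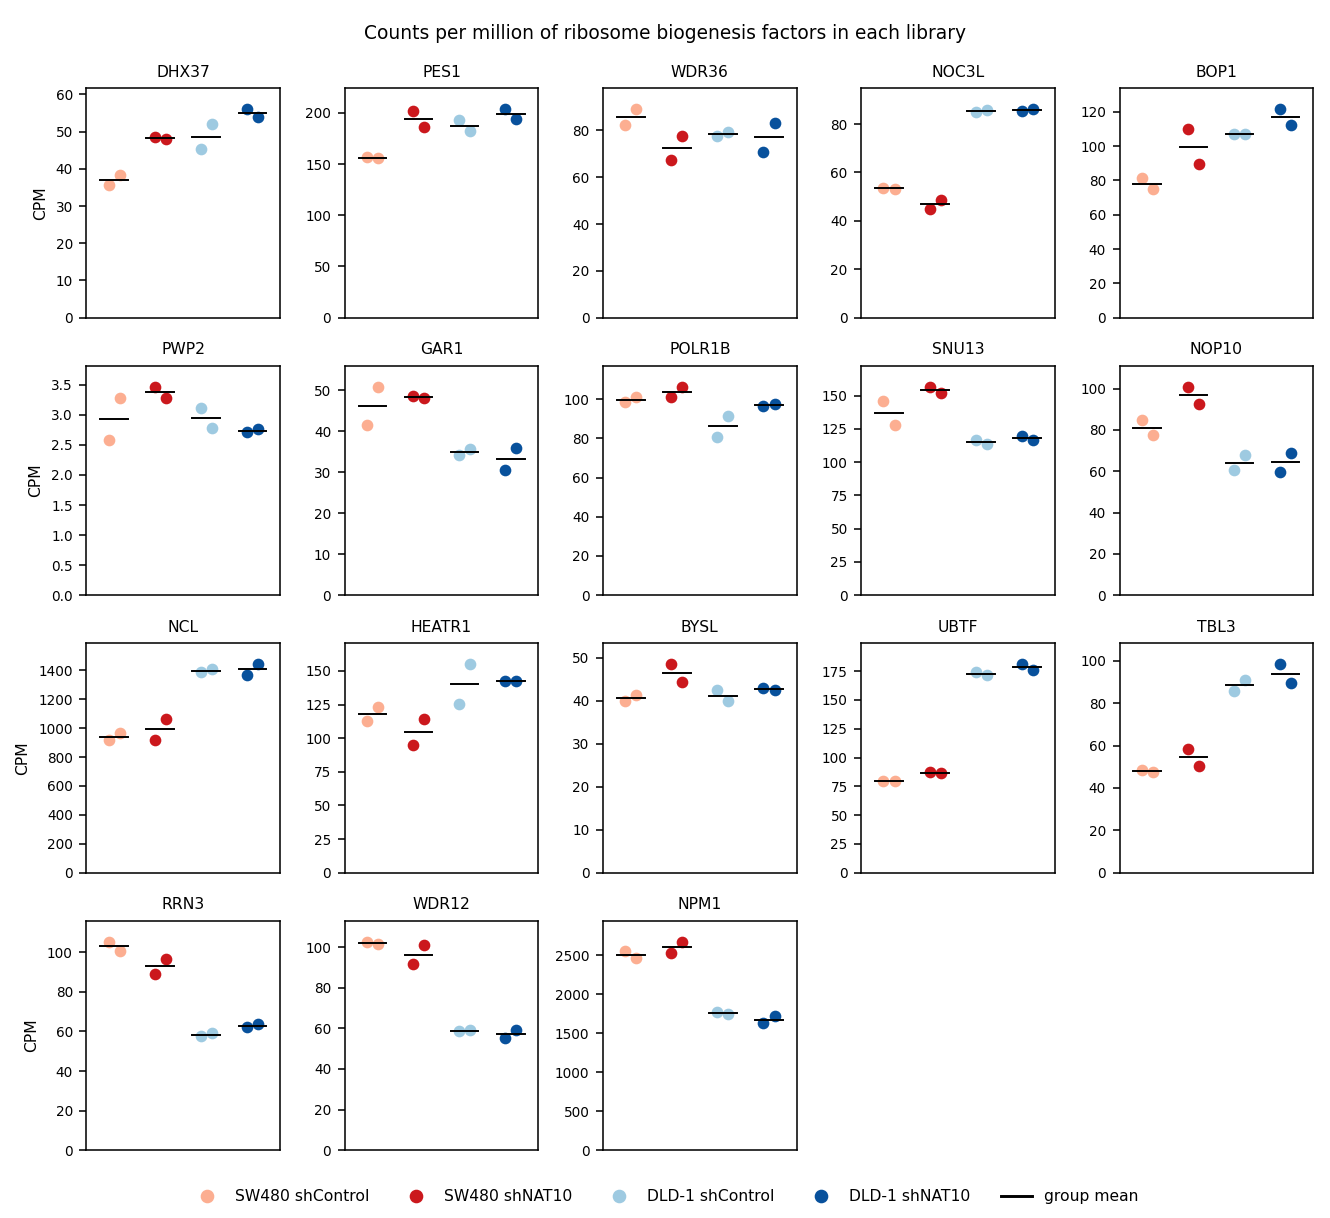
CPM of the 18 members named by rule, in each of the 8 libraries. Points are libraries, black bars are group means of 2 libraries and each axis starts at 0. The knockdown libraries of DHX37 and PES1 lie above the controls in SW480, while UBTF, TBL3, RRN3, WDR12 and NPM1 differ mainly between the cell lines.

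PWP2 counts were too low for a narrow estimate, with a log2 fold change of 0.20 in SW480 (95% interval −0.23 to 0.64) and −0.11 in DLD-1 (95% interval −0.57 to 0.35). Its own values were 2.58 and 3.28 CPM in SW480 shControl, 3.47 and 3.28 after knockdown there, 3.11 and 2.78 in DLD-1 shControl and 2.71 and 2.76 in DLD-1 shNAT10 cells. Summed with the near copy, which was done after the values were seen, PWP2 had 61.8 and 61.1 CPM in SW480 controls and 68.9 and 68.0 CPM with shNAT10. In DLD-1 the sums were 84.9 and 91.9 CPM in shControl and 94.4 and 91.7 CPM in shNAT10 cells. The sum lay above the controls in both knockdown libraries of SW480, with a log2 fold change of 0.16 (95% interval 0.00 to 0.31, edgeR adjusted p = 0.26). In DLD-1 its log2 fold change was 0.07 (95% interval −0.08 to 0.23, edgeR adjusted p = 0.94), which turned the direction found for PWP2 alone.

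In DLD-1 cells 0 members passed the test in either direction, where 0.0147% of all genes were lower and 0% higher. At an unadjusted p under 0.05, POLR1B and DHX37 were higher and 0 members were lower, against 3.03% and 2.94% of all genes. At the study's limits 0 were higher and 0 lower, against 1.34% and 1.34% of all genes. DESeq2 also called 0 members at an adjusted p under 0.05. Of the 60 members, 41 had a log2 fold change above 0 (51% of all genes did), with a median of 0.03 against 0.00 over all genes. The groups did not overlap for 15 members with higher and 6 with lower knockdown libraries, where 17.7% and 18.2% of all genes did so. For 47 members the 95% interval in DLD-1 lay within a fold change of 1.2 in either direction, and for 59 within a log2 change of 0.5. In SW480 these numbers were 27 and 57, and in both lines all 60 intervals lay within a 2-fold change. The median width on either side of the estimate was 0.16 on the log2 scale in each line. On simulated data for the SW480 comparison, 28.4% of genes changed by 0.3 on the log2 scale were recovered and 68.7% of those changed by 0.5.

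For the difference between the 2 knockdown effects, 0 members passed the test in edgeR or DESeq2, where 0.00734% of all genes were lower in SW480 and 0% higher. At an unadjusted p under 0.05, FBL and PES1 had a higher and RRN3 a lower fold change in SW480 than in DLD-1 (4.5% and 4.88% of all genes did). RRN3, the initiation factor that brings RNA polymerase I to rDNA promoters, had 105 and 101 CPM in SW480 shControl and 89.2 and 96.6 CPM in shNAT10 cells, against 57.5 and 59.0 and then 62.1 and 63.9 CPM in DLD-1. Its values lay below the controls in SW480 and lay above them in DLD-1, with a difference of −0.26 (95% interval −0.48 to −0.04, edgeR adjusted p = 0.49). The 95% intervals of the difference were wide, and only 9 of 60 lay within a fold change of 1.2.

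In SW480 0 of 34 small-subunit and 0 of 11 large-subunit factors were lower at an adjusted p under 0.05, and each class had 1 member higher, DHX37 and PES1. Of all genes tested 0.903% were lower and 0.778% higher there. The log2 fold change of the small-subunit factor WDR36 in SW480 lay between −0.35 and −0.14 with each library left out. The median log2 fold changes in SW480 were 0.02 for small-subunit and 0.09 for large-subunit factors. In DLD-1 the medians were 0.04 and 0.04, and for the mean of both lines 0.03 and 0.06. Within the small-subunit class, the SW480 medians were −0.01 for the 6 UTP-A proteins, 0.00 for the 6 UTP-B proteins, 0.10 for the 15 other processome factors and 0.10 for the 7 later maturation factors. Fold changes above 0 were found for 18 of 34 small-subunit and 8 of 11 large-subunit factors in SW480, and for 23 of 34 and 10 of 11 in DLD-1. Over all genes tested 47.8% lay above 0 in SW480 and 51% in DLD-1. Counting the box C/D proteins with the small subunit, since they form the U3 snoRNP, gave a small-subunit median of 0.02 in SW480.

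The gap between the classes was read in each library as the small-subunit minus the large-subunit median, on log2 CPM relative to the gene's mean over the 4 libraries of its line. It was 0.03 and 0.05 in the SW480 shControl libraries and −0.07 and 0.01 in the SW480 shNAT10 libraries. Both knockdown libraries thus lay below both controls, shNAT10 replicate 1 the farther of them. In DLD-1 the gap was 0.02 and −0.02 in shControl and 0.01 and 0.01 in shNAT10 libraries, where the groups overlapped. The standard deviation of the gap between replicates was 0.033. The difference in medians in SW480 was −0.07, and it lay between −0.10 and −0.01 with each library left out, the value nearest to 0 without SW480 shControl replicate 2. Leaving out SW480 shNAT10 replicate 2 gave a small-subunit median of −0.01, and leaving out replicate 1 gave 0.07. As the lists were chosen with results known, no test of this difference is given.

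**Figure D3:**
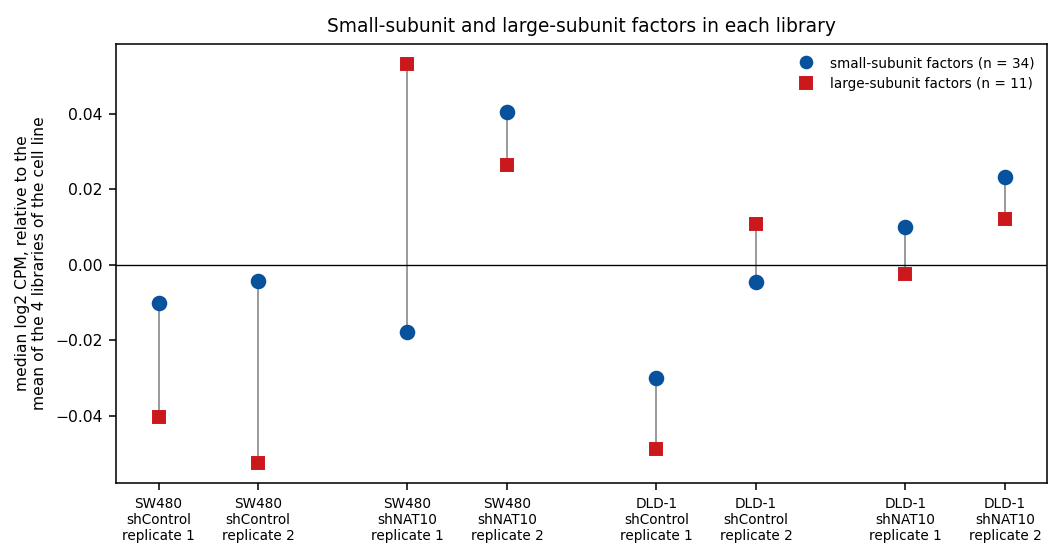
Median log2 CPM of the 34 small-subunit factors (circles) and 11 large-subunit factors (squares) in each library, relative to each gene's mean over the 4 libraries of its cell line. Grey lines join the classes of a library, and the large-subunit median is higher by 0.07 in SW480 shNAT10 replicate 1 but lower by 0.01 in replicate 2.

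The fold changes of the members went with the base composition of their transcripts. Over the 60 members, Pearson's r between log2 fold change and GC content was 0.77 in SW480 and 0.31 in DLD-1 (Spearman's rho 0.78 and 0.32), against r of 0.22 and 0.06 and rho of 0.40 and 0.21 over 13462 genes. These correlations run across genes of the same 4 libraries and are given without a test. In SW480 the 20 members with the lowest GC content (36.5% to 43.8%) had a median log2 fold change of −0.04 with 4 above 0, and the 20 with the highest (54.5% to 65.2%) had 0.17 with 19 above 0. DHX37 (61.3%), PES1 (58.1%) and BOP1 (65.2%) belonged to the latter, and WDR36 (37.3%) and NOC3L (37.7%) to the former. Small-subunit factors had a median GC content of 47.1% and large-subunit factors of 50.6%. Among members below the median GC content, the SW480 medians were −0.04 for 17 small-subunit and 0.03 for 5 large-subunit factors, and above it 0.13 for 17 and 0.19 for 6. Transcript length went the other way in SW480, with r = −0.50 and rho of −0.53, against r of −0.19 and rho of −0.41 over all genes. In DLD-1 the members' r with length was 0.22. With GC content corrected for in the fit, as described below, r with length was −0.55 in SW480.

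The same relation was present between replicates of a group. The log2 ratio of replicate 2 to replicate 1 had r = −0.76 with GC content in SW480 shNAT10, −0.59 in DLD-1 shNAT10, −0.27 in SW480 shControl and −0.21 in DLD-1 shControl cells, over the 60 members. As a gap between members of high and low GC content, relative to the line's mean, SW480 shNAT10 replicate 1 stood at 0.27 on the log2 scale and replicate 2 at −0.01, against −0.08 and −0.14 in the SW480 shControl libraries. In DLD-1 the gaps were 0.07 and −0.03 in shNAT10 and 0.00 and −0.05 in shControl libraries. The gap over all genes tested was close to that of the members, at 0.21 in SW480 shNAT10 replicate 1 and 0.10 in DLD-1 shNAT10 replicate 1, so the trend ran through the whole libraries. When GC content was corrected for in the fit, r in SW480 was 0.41. PES1 was then still called, while the log2 fold change of DHX37 was 0.29 with an edgeR adjusted p of 0.075. The corrected medians were 0.07 for small-subunit and 0.10 for large-subunit factors, and the gap between the classes was −0.04. The part of base composition in the calls was not tested beyond this correction.

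**Figure D4:**
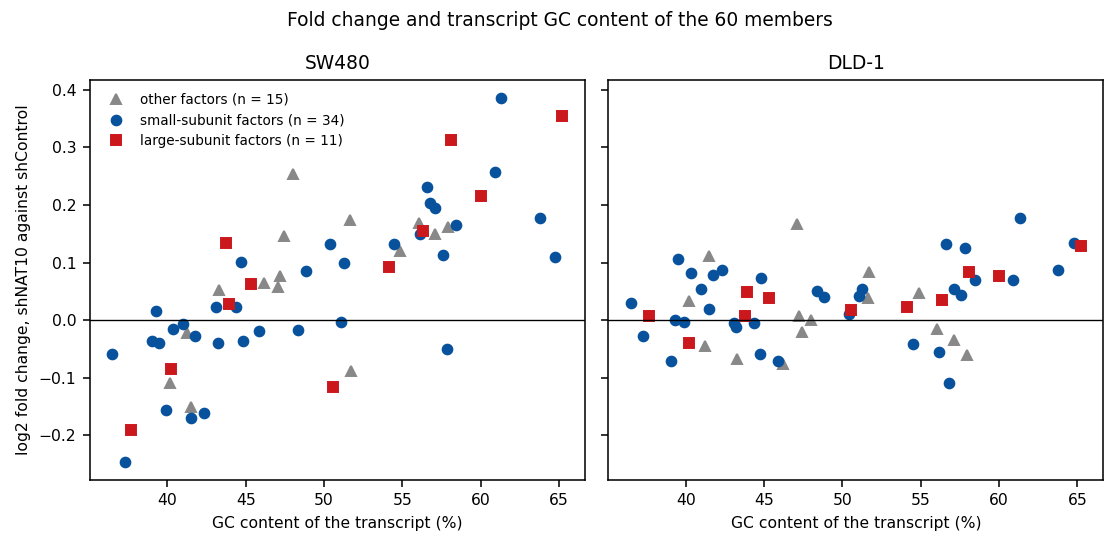
Log2 fold change of shNAT10 against shControl (vertical axis) and GC content of the transcript in percent (horizontal axis) for the 60 members in SW480 (left) and DLD-1 (right). Circles are small-subunit, squares large-subunit and triangles other factors, and the points rise from left to right with r = 0.77 in SW480 and 0.31 in DLD-1.

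Calls in SW480 rested on the libraries used. Without SW480 shNAT10 replicate 2, 12 members were higher (TBL3, FBL, BOP1, PES1, NOC2L, NOP10, NHP2, DHX37, BYSL, NOC4L, RRP9 and WDR46) and WDR36 was lower by 0.35 on the log2 scale, all at an edgeR adjusted p under 0.05. In that fit 7.46% of all genes were higher and 8.18% lower, so calls rose over the whole table. Without any other single library PES1 was not called in SW480, and DHX37 was called only without either DLD-1 shControl library. Fewer of all genes were called in those fits too, each of which leaves 1 library in a group. The log2 fold change of DHX37 in SW480 stayed between 0.33 and 0.44 and that of PES1 between 0.26 and 0.37. That of WDR36 lay between −0.35 and −0.14. For the mean of both lines, DHX37 was still called without SW480 shNAT10 replicate 2 and without DLD-1 shControl replicate 2.

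More members differed between the 2 cell lines than between knockdown and control cells. Between SW480 shControl and DLD-1 shControl cells, 27 of 60 members were lower in SW480 and 18 higher at an edgeR adjusted p under 0.05. Over all genes tested 35.6% were lower and 38.1% higher, and 73.8% differed in either direction, so the members' total of 45 was near that share. Their median log2 difference was −0.09, against 0.01 over all genes. Of the large-subunit factors 7 were lower and 2 higher, and of the small-subunit factors 16 were lower and 7 higher. The snoRNP proteins leaned the other way, with 3 of 4 box C/D and 3 of 4 box H/ACA proteins higher in SW480, and NOP56 lower. The medians were −0.12 for small-subunit, −0.26 for large-subunit, 0.29 for box C/D and 0.37 for box H/ACA proteins.

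UBTF, the architectural factor that opens rDNA for RNA polymerase I, differed most. It had 79.8 and 79.9 CPM in SW480 shControl and 174 and 172 CPM in DLD-1 shControl cells, a log2 difference of −1.11 (standard error 0.06, edgeR adjusted p = 7.3e-10). RRN3, which acts with it at the rDNA promoter, differed in the opposite direction by 0.82 (standard error 0.07, edgeR adjusted p = 1.1e-07). By limma-trend on FPKM values, which used 1 of the 2 transcripts of RRN3, the difference was 0.19 with an adjusted p of 0.42, so that this call was lost. After knockdown UBTF had 87.4 and 86.2 CPM in SW480 and 181 and 176 CPM in DLD-1, and the lines stayed apart in all 8 libraries for both genes.

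TBL3, a UTP-B protein, had 48.6 and 47.5 CPM in SW480 shControl and 85.9 and 91.0 CPM in DLD-1 shControl cells, a log2 difference of −0.88 (standard error 0.09, edgeR adjusted p = 3.6e-07). Its knockdown values were 58.6 and 50.2 CPM in SW480 and 98.4 and 89.5 CPM in DLD-1. WDR12 was higher in SW480 by 0.79 (standard error 0.07, edgeR adjusted p = 2.2e-07), whereas its partners PES1 and BOP1 were lower by −0.26 and −0.45. The 3 proteins of that complex thus differed between the lines in unlike directions. NPM1 had 2553 and 2459 CPM in SW480 shControl against 1767 and 1739 CPM in DLD-1 shControl cells, a log2 difference of 0.52 (edgeR adjusted p = 9.4e-06), and 2526 and 2672 against 1628 and 1717 CPM after knockdown. Of the UTP-A proteins, 5 of 6 were lower in SW480 and WDR43 was higher. PWP2 alone was not called between the lines (log2 difference −0.01, 95% interval −0.46 to 0.44), but its sum with the near copy was lower in SW480 by −0.53 (standard error 0.07, edgeR adjusted p = 1.1e-05). With that sum the small-subunit median was −0.15.

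**Figure D5:**
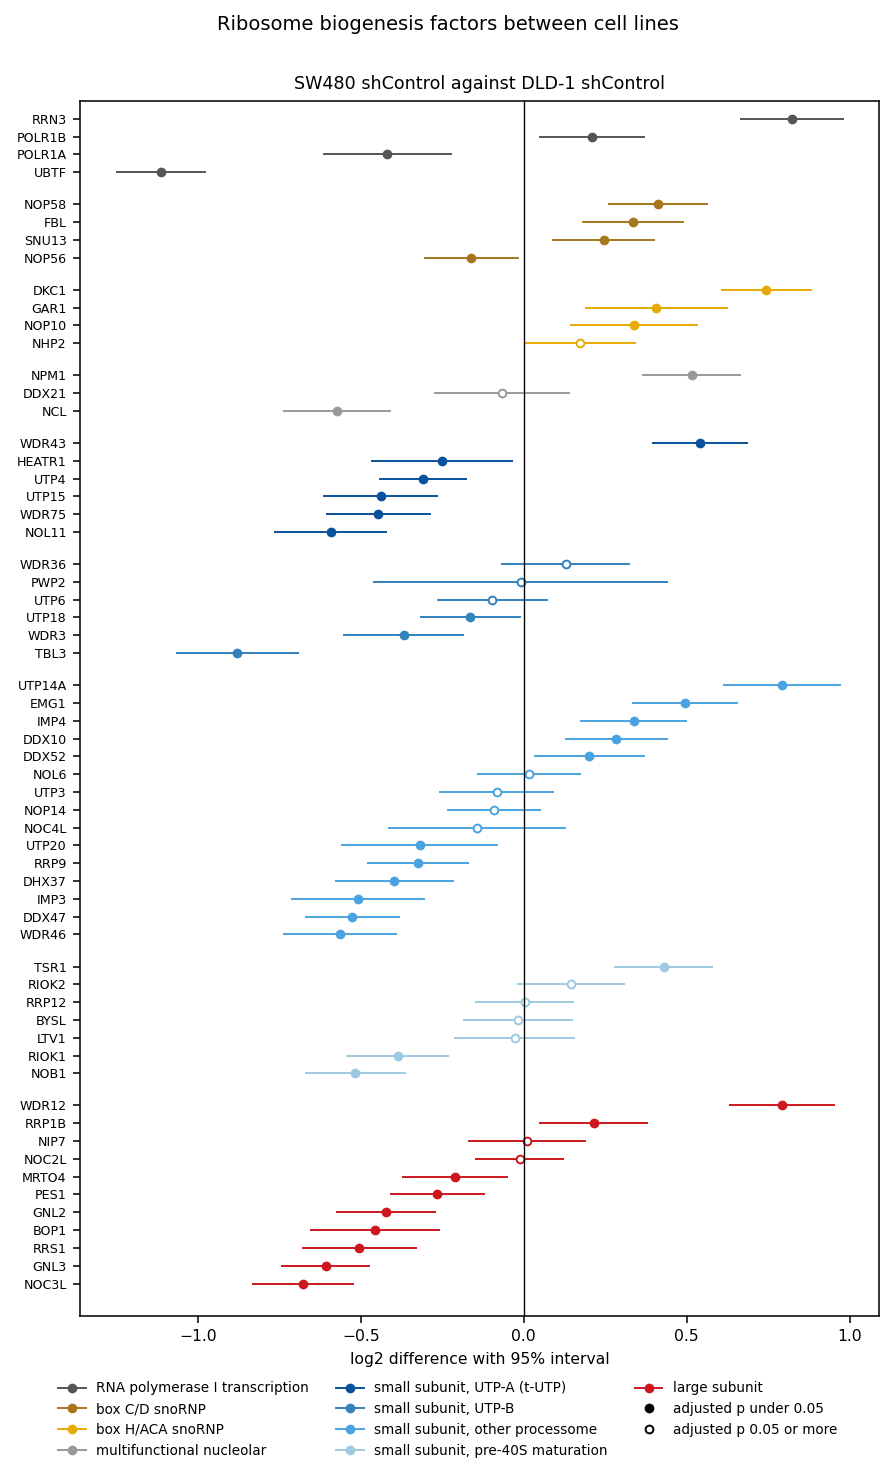
Log2 difference between SW480 shControl and DLD-1 shControl cells for each of the 60 members, with 95% intervals. Colours mark the class and filled points an adjusted p under 0.05. UBTF and TBL3 lie farthest below 0, and RRN3 and WDR12 farthest above.

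A further 88 genes of the same pathway were listed beside the members, 24 small-subunit, 43 large-subunit, 11 RNA polymerase I and 10 snoRNP and assembly genes. THUMPD1, whose role in tRNA acetylation is given below, was listed with the small-subunit genes. In SW480, 5 of them were higher (PPAN, DDX54, NOP16, NOLC1 and TCOF1) and THUMPD1 was lower at an edgeR adjusted p under 0.05, and in DLD-1 0 were called. Over all genes tested 0.778% were higher and 0.903% lower in SW480. For the mean of both lines, NOLC1, TCOF1 and DDX24 were higher and RPF1 was lower, where 0.455% and 0.565% of all genes were. NOLC1, the phosphoprotein that carries snoRNPs in the nucleolus and Cajal bodies, had 236 and 248 CPM in SW480 shControl and 366 and 404 CPM in shNAT10 cells, and 377 and 416 against 477 and 500 CPM in DLD-1. The groups were apart in both lines, and the mean log2 fold change was 0.49 (standard error 0.05, edgeR adjusted p = 0.00035), more than that of any member. Its partner TCOF1, treacle, which serves rDNA transcription, had 160 and 161 CPM against 200 and 199 CPM in SW480 and 289 and 302 against 336 and 339 CPM in DLD-1 (mean log2 fold change 0.25, edgeR adjusted p = 0.011).

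The large-subunit helicase DDX54 rose by 0.42 on the log2 scale in SW480 (edgeR adjusted p = 0.019) and had a log2 fold change of 0.07 in DLD-1 (edgeR adjusted p = 0.96). DDX24, also a DEAD-box helicase of large-subunit assembly, had a mean log2 fold change of 0.21 (edgeR adjusted p = 0.037). RPF1, a Brix-domain protein of the large-subunit precursor, had −0.24 in SW480 and −0.24 in DLD-1 (edgeR adjusted p = 0.049 for the mean). THUMPD1, the RNA-binding partner of NAT10 in tRNA acetylation, fell by 0.40 in SW480 (edgeR adjusted p = 0.031) and had −0.05 in DLD-1 (edgeR adjusted p = 0.98). The median log2 fold change of the 88 genes was 0.06 in SW480 and 0.01 in DLD-1. The calls of TCOF1, DDX54, DDX24, THUMPD1 and RPF1 were each lost without either SW480 shControl library, among others, and the NOLC1 call was lost in the fit on FPKM values.

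The designed hairpin targets are shown because hairpins can act on mRNAs that match them.
shNAT10-1: ggccaaagctgtcttgaaa
shNAT10-2: cagtgacgacctagatgaa
Both match NAT10 over all 19 bases. In the GENCODE transcripts of the 60 members, the longest run shared with shNAT10-1 was 11 bases, in DKC1 and DDX52, and that with shNAT10-2 was 12 bases, in DDX10. Runs at least as long were found in 2.24% and 0.0688% of the 13080 genes with a transcript. DDX10 had 82.8 and 80.5 CPM in SW480 shControl and 76.4 and 82.5 CPM in shNAT10 cells, and 67.1 and 66.9 against 64.9 and 68.1 CPM in DLD-1, so its groups overlapped in both lines.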

How the data were processed

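Poly(A)-selected RNA of 4 groups (SW480 and DLD-1 cells with shControl or shNAT10, 2 libraries each) was sequenced by BGI as single-end reads of 50 bases on the BGISEQ-500 platform. The submitters' processing notes name HISAT2 2.0.4, Bowtie2 2.2.5, RSEM 1.2.12 and hg38, without their order. The authors deposited estimated counts per RefSeq transcript, not normalized, and FPKM values per library. FPKM values of SW480 shNAT10 replicate 2 end early, which leaves 14655 transcripts (18.6%) without a value and 26 members with part of their transcripts, so FPKM served for levels in control cells and for an alternative test.

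Estimated counts were summed over the transcripts of each gene, rounded, filtered with filterByExpr (minimum count 10), normalized by TMM and fitted as 4 groups by the quasi-likelihood test of edgeR 4.0.16 in R 4.3.3. The biological coefficient of variation was 0.0585. Contrasts tested were 5 (each line, their mean, their difference and the lines' control cells), with Benjamini-Hochberg adjustment over 13619 genes. Each standard error was taken from the size of the log2 fold change and the square root of its F statistic.

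Members, classes, the 88 further pathway genes and the marker lists were chosen with earlier results of these data known. CPM values were given for members with an adjusted p under 0.05 in a knockdown comparison or their difference, the 2 largest rises and falls in each knockdown comparison and their mean, the largest mean change of each class, the 4 largest differences between the lines, and the most and least abundant member. Of further pathway genes, at most 6 called in a knockdown comparison with the lowest p were described. Genes named by unadjusted p, in the difference between lines or in the fits without a library were named after their values were seen.

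GC content and length came from GENCODE transcripts, promoters from RefSeq (GRCh38.p14). Alternatives were a replicate block, DESeq2 1.42.0, other filters, normalization to the upper quartile, each line fitted alone, a GC correction (loess, span 0.5), limma-trend of limma 3.58.1 on log2(FPKM + 1), each library left out, and 2 other class divisions. PWP2 with its near copy was added after the data were seen. The model was tested on simulated counts drawn with the same spread for all genes and libraries and no GC trend. Python 3.11.15, pandas 2.3.3, numpy 2.4.6 and matplotlib 3.10.9 were used.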

Additional observations from a re-analysis of the deposited data

Results flagged for a closer look

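NAT10, the targeted gene, differed between the cell lines in its knockdown effect, by −1.16 on the log2 scale (SW480 minus DLD-1, interaction term in edgeR, adjusted p = 0.0015), and 0 members did.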

How the results depend on the processing

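With 2 libraries per group, changes of 0.3 on the log2 scale were often missed in simulated data, where all genes had the same spread. Calls also moved with the fit. In SW480 the 2 members called higher became 0 without a filter, 0 with the line fitted alone, 0 by limma-trend on FPKM (55 members), 1 with the GC correction and 4 by DESeq2. In these fits, in order, 0.116%, 0.122%, 0.023%, 1.25% and 1.23% of all genes were higher, against 0.778% in the fit given above. For the mean of both lines the 1 member called higher became 0 without a filter, 0 with the GC correction, 0 by limma-trend and 3 by DESeq2. Of all genes 0.145%, 0.676%, 0.0154% and 0.83% were higher there, in the same order, against 0.455%. At the study's limits, SW480 had 5 members higher instead of 3 with upper-quartile normalization and 5 with the line alone, and 1 lower instead of 0 by limma-trend. Over all genes, 626 of 13619 and 591 of 13152 were higher in the former fits, against 559 of 13619. By limma-trend 523 of 13026 were lower, against 678 of 13619. The mean had 0 higher instead of 1 with the GC correction and by limma-trend, where 134 of 13462 and 160 of 13026 genes were higher, against 177 of 13619.

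The replicate numbers are not said to mark a shared batch, and the deviations of same-numbered libraries correlated by 0.40 between the SW480 groups, 0.24 between the DLD-1 groups and −0.0007 to 0.41 over all pairs of groups. With a replicate block, 9 members were higher and 1 lower in SW480, and 6 were higher for the mean of both lines. Of all genes, 5.39% were then higher and 6.76% lower in SW480 and 2.92% higher for the mean, so calls rose over the whole table. The SW480 calls were BOP1, DHX37, FBL, IMP3, NOC2L, NOP10, PES1, RRP9 and SNU13 higher and WDR36 lower (−0.25, adjusted p = 0.018 in edgeR). With 2 libraries per group, whether each resembled its own number most was not asked.

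With each library left out, SW480 had 0 to 12 members higher and 0 to 1 lower, or 1 to 8 and 0 to 4 at the study's limits. DLD-1 had 0 to 1 higher at the study's limits. The mean had 0 to 6 higher, or 0 to 2 at the limits. In SW480 the small-subunit median lay between −0.013 and 0.0683, the large-subunit median between 0.0561 and 0.13 and their gap between −0.10 and −0.0068. The large-subunit median in DLD-1 lay between 0.0016 and 0.0688. Between the lines the medians lay between −0.17 and −0.10 and between −0.31 and −0.22, and the gap between 0.0928 and 0.19. Directions turned for GAR1 in DLD-1 (−0.20 to 0.0405), NCL (−0.0116 to 0.0977) and HEATR1 (−0.14 to 0.0045) in the mean, and PWP2 between the lines (−0.19 to 0.15).

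The SW480 small-subunit median was 0.0671 and the gap −0.0354 with the GC correction, and the median −0.0168 by limma-trend. Between the lines the small-subunit median of −0.12 became −0.0933 with at least 10 counts in every library, −0.16 with the GC correction, −0.0865 by limma-trend, −0.0939 with box C/D proteins included, −0.14 without RRP12 and −0.15 with the near copy of PWP2, which made the gap 0.11. The large-subunit median of −0.26 became −0.24, −0.32 and −0.22 in the former 3. PWP2 alone turned from −0.01 between the lines to 0.0082 with upper-quartile normalization, 0.0172 with 10 counts in every library and 0.0018 by DESeq2, and from −0.11 in DLD-1 to 0.0743 with its near copy. The causes were not tested, other than that fewer libraries or genes entered some fits.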
